A study of Homo sapiens with 4 samples.

Results

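The genes described here are 49 ligands, receptors, antagonists, SMAD proteins and near regulators of the TGF-β superfamily, picked by gene symbol from the 23228 gene rows of each library. All 49 symbols were found. They were measured by RNA sequencing in Daoy, an established human medulloblastoma cell line. The cells were transduced with lentivirus and stably expressed either a control shRNA (n = 2 libraries) or a PELP1 shRNA (n = 2 libraries), and were grown in medium with serum. PELP1 is a scaffold protein and nuclear receptor coregulator. The labels name 1 PELP1 shRNA vector and give neither its target sequence nor whether the cells were a pool or a clone, so loss of PELP1 and any other action of that shRNA cannot be told apart.

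Ligands of the TGF-β superfamily are secreted dimers that bring together type I and type II serine/threonine kinase receptors at the cell surface. The activated type I receptor phosphorylates receptor-regulated SMAD proteins, which join SMAD4 and enter the nucleus. TGF-β, activin and some GDF ligands act mainly through SMAD2 and SMAD3, and BMP ligands mainly through SMAD1, SMAD5 and SMAD9. Secreted antagonists such as follistatin, gremlin and noggin hold ligands away from their receptors, latent TGF-β binding proteins (LTBPs) tether latent TGF-β in the matrix, and SMAD6, SMAD7 and the SMURF ubiquitin ligases damp the signal inside the cell. BMP signalling restrains the proliferation of cerebellar granule neuron precursors, the lineage from which one class of medulloblastoma arises.

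Sequences upstream of 4 of these genes are shown. Their transcripts had among the largest differences, and RefSeq lists a single start for each. GDF15 and ENG also have a single listed start and had larger differences than TGFB2. They matched none of the searched motifs and are not printed. Each run is the 250 bases before the start, written 5′ to 3′ on the gene's own strand in build GRCh38.p14, and capitals mark letters that match a searched motif. The positions are chr5:53480379-53480628 (plus strand) for FST, chr6:7725849-7726098 (plus strand) for BMP6, chr7:41703091-41703340 (minus strand) for INHBA and chr1:218345086-218345335 (plus strand) for TGFB2.
FST: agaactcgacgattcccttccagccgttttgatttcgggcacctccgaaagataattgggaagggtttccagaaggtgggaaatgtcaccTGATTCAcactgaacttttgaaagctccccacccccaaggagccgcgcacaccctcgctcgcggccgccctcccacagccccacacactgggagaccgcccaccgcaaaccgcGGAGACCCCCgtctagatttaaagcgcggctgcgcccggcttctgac
BMP6: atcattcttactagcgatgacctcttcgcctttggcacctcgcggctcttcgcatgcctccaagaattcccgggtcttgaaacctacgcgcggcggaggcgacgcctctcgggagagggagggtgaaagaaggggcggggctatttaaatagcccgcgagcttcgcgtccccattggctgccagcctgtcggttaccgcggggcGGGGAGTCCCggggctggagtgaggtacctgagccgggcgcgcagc
INHBA: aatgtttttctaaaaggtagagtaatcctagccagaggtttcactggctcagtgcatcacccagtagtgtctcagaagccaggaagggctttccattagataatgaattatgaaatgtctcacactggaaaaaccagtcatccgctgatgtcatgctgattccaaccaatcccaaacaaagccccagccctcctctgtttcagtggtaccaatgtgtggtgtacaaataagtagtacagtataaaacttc
TGFB2: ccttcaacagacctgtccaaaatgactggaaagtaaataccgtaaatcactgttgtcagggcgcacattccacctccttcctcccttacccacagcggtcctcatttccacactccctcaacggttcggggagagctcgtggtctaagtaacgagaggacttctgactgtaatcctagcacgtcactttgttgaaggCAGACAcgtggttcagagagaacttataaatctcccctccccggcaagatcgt

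Upstream of FST, the capitals are a match to the AP-1 pattern beginning 160 bases before the start and a κB match beginning 47 bases before it. The AP-1 match in FST reads TGATTCA, whereas the other AP-1 matches among the 49 genes read TGACTCA or TGAGTCA. BMP6 has a κB match 46 bases before its start, and TGFB2 has the letters CAGACA, the repeat form of a SMAD motif, 53 bases before its start. In INHBA the same letters lay 27 bases after the start, outside the printed run. RefSeq listed 76 starts for 44 of the 49 genes, and each was searched from 250 bases before to 50 after, on both strands. AP-1 letters (TGANTCA) were in 6.58% of these windows and in 7.71% of all 35116 windows of that length. The κB motif was in 14.5% and 5.91%, CAGACA in 21.1% and 16.9%, the BMP-type SMAD letters GGCGCC in 27.6% and 19.2%, the cyclic AMP element TGACGTCA in 2.63% and 1.85%, and the palindrome GTCTAGAC in 1.32% and 0.202%. The only palindrome was in SMAD6, 12 bases before its start. No motif overlapped another in the 4 printed runs. Windows of 1 gene can overlap, and a match of letters is a description, not a binding site.

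The libraries held 24052542 to 29221640 counts in genes, and PELP1 itself stood at 168 and 185 CPM in the control libraries and 55.6 and 49.7 CPM in the PELP1 shRNA libraries, 29.8% of control. CPM, counts scaled to a common library depth, were computed after TMM scaling. All 49 genes passed the filter on low counts, and INHBE passed through its control libraries only. Counts ranged from 6 for INHBE to 25272 for FSTL1 in a single library. Of the 49 genes, 23 share some exonic bases with an antisense gene. The SD between duplicates was 2.56% of the mean in the median case and at most 25.8%. Nothing in the labels says that duplicates came from separate cultures, and the spread behind the p-values is that between these libraries and may be technical. Of 13 medulloblastoma and granule lineage markers, 7 were at 1 CPM or more, and the list's summed level, mostly SFRP1, was 257 and 258 CPM against 244 and 253 CPM. Of these markers 5 were called higher and 2 lower, among them PAX6 (16.0 to 23.3 CPM in the group means) and GLI2 (38.5 to 23.5 CPM). Among defining markers, ZIC1 stood at 20.2 and 21.9 CPM in the control libraries, while ATOH1, BARHL1 and NEUROD1 were under 1 CPM in the means of both groups. The 5 leukocyte markers summed to 1.20 to 2.68 CPM and the 4 endothelial ones to 3.03 to 5.97 CPM in each library. The summed level of 6 glial markers, 3 of them called higher with the PELP1 shRNA, was 49.5 and 48.4 CPM in both first replicates and 20.5 and 23.1 CPM in both second ones. The largest part was GFAP, at 37.2 and 11.8 CPM in the control libraries and 27.8 and 10.4 CPM in the PELP1 shRNA libraries. Markers of other lists also differed between the groups. Of 6 mesenchymal markers 5 were lower and 1 higher. Of 5 neuronal markers 1 was lower (TUBB3, 155 to 78.2 CPM) and 2 were higher (SNAP25, 1.19 to 6.14 CPM, and SYP, 4.69 to 8.31 CPM), with sums of 157 and 174 CPM, then 97.1 and 97.4 CPM. Of 5 neural progenitor markers 2 were lower and 2 higher, VIM going from 5548 to 3894 CPM and PROM1 from 4.58 to 23.6 CPM, with sums of 5505 and 5640 CPM, then 3943 and 3940 CPM. The 5 epithelial markers summed to 567 and 582 CPM, then 852 and 830 CPM, with 3 called higher and 0 lower. KRT8 went from 84.8 to 171 CPM and KRT18 from 489 to 668 CPM in the group means. EPCAM was also called higher, but EPCAM, CDH1 and KRT19 were under 1 CPM in all 4 libraries. The part of these differences in the results was not tested. In bulk RNA, fewer cells of a type and less RNA per cell cannot be told apart.

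Of the 49 genes, 9 rose, 21 fell and 19 did not pass the threshold (edgeR quasi-likelihood test, false discovery rate, FDR, under 0.05 over 14972 genes). That is 18.4% higher and 42.9% lower, against 28.6% and 29.5% of all genes tested. The 49 genes were chosen with earlier results of these data known, so their shares here and below are not independent evidence of a direction. INHBE is among the 21 but entered the test only through the group where it was high, and 20 were lower without it. The median log2 fold change, PELP1 shRNA over control shRNA, was −0.12 for the 49 genes and 0.00222 for all genes tested. The balance depended on scaling, as it did among all genes tested. The share of higher genes among the called ones was 30.0%, and 45.9% when libraries were scaled by size alone (17 higher, 20 lower) or 42.9% with upper-quartile factors (15 higher, 20 lower). Among all genes tested, 4276 were called higher and 4424 lower as reported, 5681 and 3305 with size alone, and 5071 and 3694 with upper-quartile factors. Tested against a change of 1.5-fold, 3 genes were higher (6.12%, against 4.74% of all genes) and 7 lower (14.3%, against 4.9%). The 3 were TGFB2, GDF15 and LTBP3, and the 7 were FST, INHBA, BMP4, BMP6, ENG, FSTL1 and LTBP4. An estimated change of at least 1.5-fold past the FDR threshold, with no overlap between groups and a mean of at least 1 CPM, was seen in 4 higher and 12 lower genes (8.16% and 24.5%, against 8.01% and 7.57% of all genes).

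**Figure D1:**
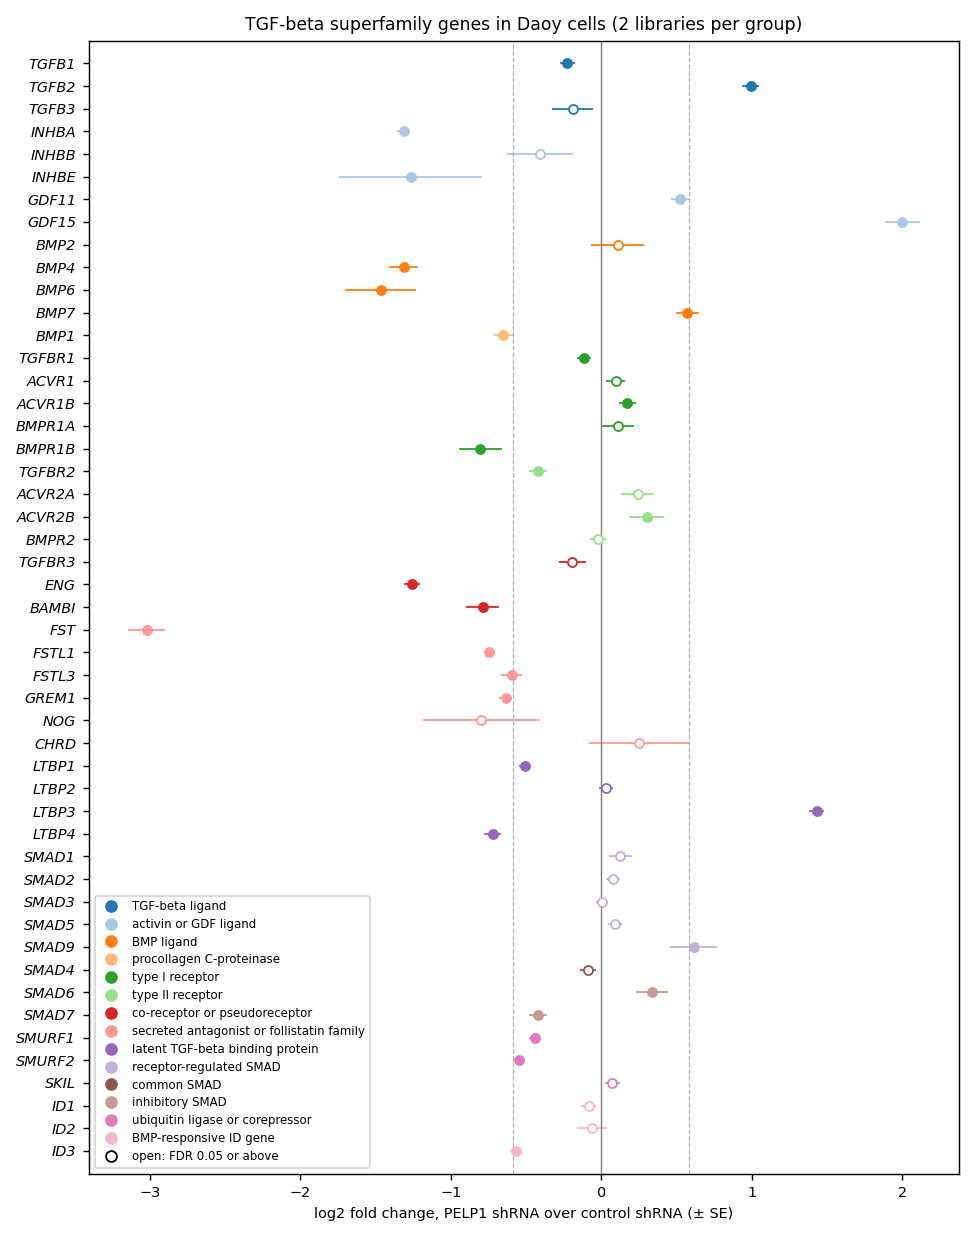
Log2 fold change (PELP1 shRNA over control shRNA, 2 libraries per group) of the 49 genes, coloured by role, with bars for ± 1 SE. Filled points passed an FDR of 0.05 and dashed lines mark a 1.5-fold change. FST is farthest to the left at −3.02 and GDF15 farthest to the right at 2.00, while 4 of the 5 receptor-regulated SMAD genes are open points close to 0.

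**Figure D2:**
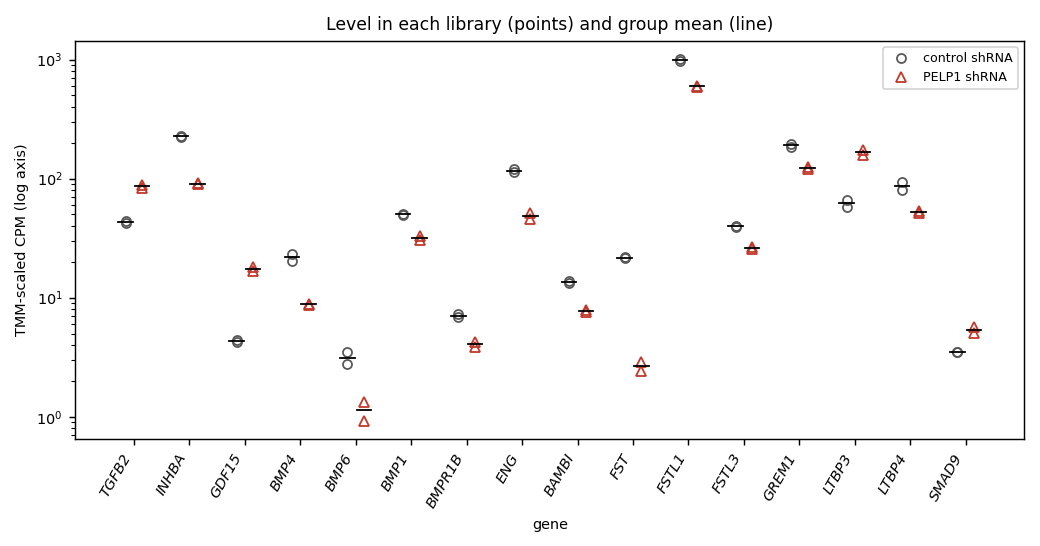
TMM-scaled CPM (log axis) in each library for 16 genes. They were selected for a called change of at least 1.5-fold, no overlap between groups and a mean of at least 1 CPM. Circles are control shRNA libraries, triangles PELP1 shRNA libraries and lines group means. Only TGFB2, GDF15, LTBP3 and SMAD9 are higher with the PELP1 shRNA.

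Among the 3 TGF-β isoforms, TGFB2 rose, TGFB1 fell slightly and TGFB3 did not pass. TGFB2 (chromosome 1, 218518678 to 218617961, hg19) stood at 44.3 and 42.7 CPM in the control libraries and at 84.1 and 88.9 CPM in the PELP1 shRNA libraries. The PELP1 shRNA libraries were both higher, by a log2 fold change of 0.99 ± 0.06 (SE, FDR = 1.58e-24). TGFB2 shares 1371 exonic bases with a transcript on its own strand and 701 with an antisense gene, and reads of overlapping genes cannot be told apart without the strand setting. TGFB1 stood at 102 and 114 CPM in the control libraries and 91.2 and 93.5 CPM with the PELP1 shRNA (log2 fold change −0.23 ± 0.05, SE, FDR = 6.03e-05). The estimate was −0.14 without control replicate 2, and the call was lost when a biological variation of 10% was assumed (adjusted p = 0.26). TGFB3 was near 6 CPM or lower in all libraries, with a difference of −0.19 ± 0.14 (SE, FDR = 0.237). Per exon length, TGFB1 made up 78.7% and 80.8% of the summed level of the 3 isoforms in the control libraries and 65.2% and 64.6% with the PELP1 shRNA. TGFB2 made up 18.5% and 16.4%, then 32.4% and 33.1%, so TGFB1 was the most abundant isoform in each library.

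Of the 5 activin and GDF ligand genes, INHBA fell by more than 2-fold, GDF15 and GDF11 rose, INHBB did not pass, and INHBE had at most 18 counts in a library. INHBA encodes the βA subunit, whose homodimer is activin A, and lies on chromosome 7 (41706766 to 41745432, hg19). It stood at 227 and 226 CPM in the control libraries and at 91.8 and 90.2 CPM in the PELP1 shRNA libraries. Duplicates were close together, and the level with the PELP1 shRNA was 40.3% of control (log2 fold change −1.31 ± 0.04, SE, FDR = 7.12e-37). INHBA shares 248 exonic bases with its antisense gene. INHBB, the βB subunit, was at 2.48 and 2.49 CPM, then 1.62 and 2.14 CPM (−0.41 ± 0.22, SE, FDR = 0.108). INHBE, the βE subunit, had 13 and 18 counts with the control shRNA and 9 and 6 with the PELP1 shRNA, for a ratio of 0.412 (95% counting interval 0.206 to 0.786). The edgeR FDR was 0.019, in a gene that passed the filter only through the control libraries. DESeq2 gave an adjusted p of 0.18, and leaving out a library gave 0.182 (control replicate 2), 0.0532 (PELP1 shRNA replicate 1) or 0.13 (PELP1 shRNA replicate 2). Intervals of this kind hold counting error alone, as reads with no molecular identifier need not come from different molecules.

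GDF15, a stress-induced ligand of a receptor found mainly in the brainstem, had the largest rise of the 49 genes. It stood at 4.24 and 4.43 CPM in the control libraries and 18.0 and 16.7 CPM in the PELP1 shRNA libraries (log2 fold change 2.00 ± 0.12, SE, FDR = 1.69e-23). The gene of that receptor, GFRAL, had 0 counts in all 4 libraries, where a count of 0 allows up to 0.0994 to 0.128 CPM. Its partner RET, looked at after its values were seen, was at 1.28 and 1.52 CPM, then 2.19 and 2.21 CPM (0.65 ± 0.24, SE, FDR = 0.0197). GDF11, a close relative of myostatin, rose from 40.3 and 38.0 CPM to 56.7 and 55.9 CPM (0.53 ± 0.06, SE, FDR = 1.79e-11). Per exon length, INHBA was the highest of these 5 genes in each library, with 78.3% and 78.5% of their sum in the control libraries and 41.4% and 41.9% with the PELP1 shRNA. GDF15 went from 5.81% and 6.12% of the sum to 32.3% and 30.7%.

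The 4 BMP ligand genes moved in opposite directions. BMP4 and BMP6 fell, BMP7 rose and BMP2 did not pass. BMP4 (chromosome 14, 54416454 to 54425479, hg19) stood at 20.5 and 23.1 CPM in the control libraries and 8.72 and 8.85 CPM in the PELP1 shRNA libraries, 40.3% of control (log2 fold change −1.31 ± 0.10, SE, FDR = 8.91e-19). It shares 506 exonic bases with an antisense gene. BMP6 was at 3.51 and 2.76 CPM, then 0.928 and 1.34 CPM (−1.47 ± 0.24, SE, FDR = 2.85e-07). Its duplicates were farther apart than those of BMP4, and its value lay between −1.75 and −1.21 over the alternatives. BMP7 rose from 21.1 and 20.8 CPM to 29.6 and 32.8 CPM (0.57 ± 0.08, SE, FDR = 2.48e-09). BMP2 had 157 and 199 counts in the control and PELP1 shRNA libraries together, a ratio of 1.08 (95% counting interval 0.870 to 1.34). The order per exon length therefore turned over. BMP4 held 53.8% and 57.6% of the summed BMP ligand level in the control libraries against 31.7% and 29.5% for BMP7, and 29.6% and 28.0% against 57.3% and 59.2% in the PELP1 shRNA libraries. BMP1 is not a ligand but a protease that trims procollagens and cleaves chordin. It fell from 50.2 and 49.8 CPM to 32.9 and 30.7 CPM (−0.65 ± 0.06, SE, FDR = 7.67e-14).

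**Figure D3:**
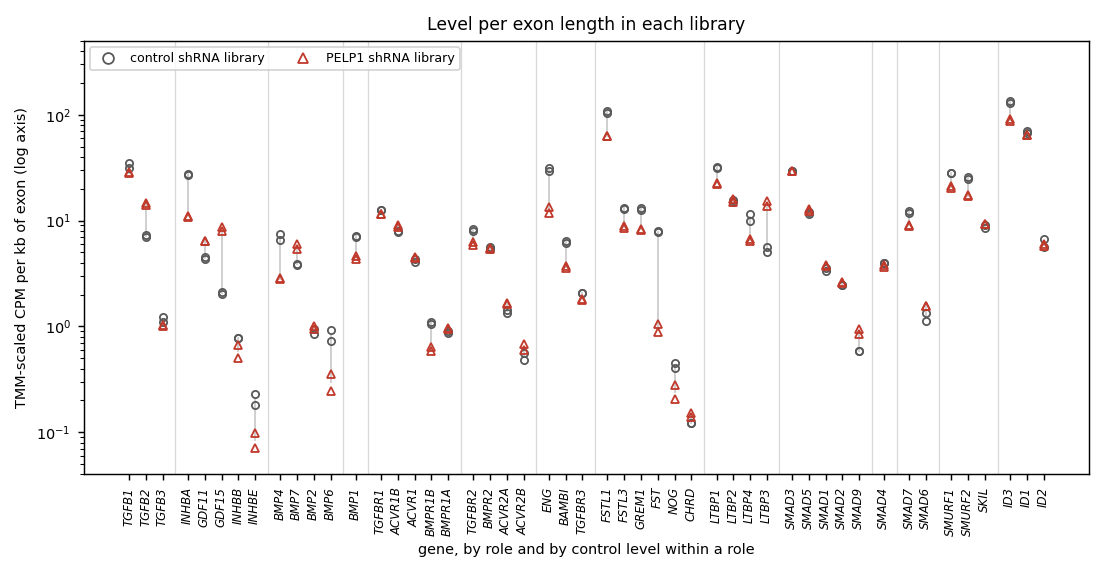
TMM-scaled CPM per kb of exon (log axis) of the 49 genes in each library, grouped by role (grey lines) and ordered by control level within a role. Circles are control shRNA libraries and triangles PELP1 shRNA libraries. BMP7 lies above BMP4 only in the PELP1 shRNA libraries, and the receptor-regulated SMAD genes keep the same order in both groups.

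Of 5 type I receptor genes, BMPR1B and TGFBR1 fell, ACVR1B rose, and ACVR1 and BMPR1A did not pass. BMPR1B, a BMP receptor, stood at 7.23 and 6.92 CPM in the control libraries and 4.24 and 3.85 CPM with the PELP1 shRNA (−0.80 ± 0.14, SE, FDR = 1.62e-06). It was the only type I receptor gene with a change of at least 1.5-fold. TGFBR1, the type I receptor for TGF-β and the most abundant of the 5, was at 100.1 and 99.9 CPM, then 93.0 and 91.3 CPM (−0.12 ± 0.05, SE, FDR = 0.0281). Its call was lost in 11 of the 14 alternatives, for example with library size alone (−0.03, adjusted p = 0.641) and without any single library. ACVR1B, an activin receptor, had a difference of 0.17 ± 0.06 (SE, FDR = 0.0101), lost without PELP1 shRNA replicate 2 (adjusted p = 0.0993), with DESeq2 (0.0639) and at an assumed variation of 10% (0.416). ACVR1 and BMPR1A stood at 0.09 ± 0.06 and 0.11 ± 0.11 (SE).

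Of the 4 type II receptor genes, TGFBR2 fell, ACVR2B rose, and ACVR2A and BMPR2 did not pass. TGFBR2, which binds TGF-β first, stood at 55.1 and 57.1 CPM in the control libraries and 40.7 and 43.1 CPM in the PELP1 shRNA libraries (−0.42 ± 0.06, SE, FDR = 8.27e-09). ACVR2B, an activin receptor, was at 7.53 and 8.82 CPM, then 10.8 and 9.32 CPM (0.30 ± 0.12, SE, FDR = 0.0222), and leaving out replicate 1 of the control (0.19, adjusted p = 0.245) or of the PELP1 shRNA group (0.19, adjusted p = 0.275) ended the call, as did DESeq2 (0.167) and an assumed variation of 10% (0.183). ACVR2A, also an activin receptor, was at 9.24 and 8.63 CPM, then 10.4 and 10.7 CPM (0.24 ± 0.11, SE, FDR = 0.054). ACVR2A and the type I gene ACVR1 were called higher with library size alone (adjusted p = 0.00706 and 0.00825) and with upper-quartile factors. BMPR2, the BMP type II receptor, was at 70.4 and 67.9 CPM in the control libraries and 67.5 and 68.8 CPM in the PELP1 shRNA libraries, where the groups overlap (−0.02 ± 0.05, SE, FDR = 0.754).

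The co-receptor ENG and the pseudoreceptor BAMBI fell. ENG, endoglin, binds TGF-β family ligands next to the signalling receptors and lies on chromosome 9 (130577292 to 130616937, hg19). It stood at 114 and 119 CPM in the control libraries and 51.9 and 45.5 CPM in the PELP1 shRNA libraries, 41.8% of control (−1.26 ± 0.05, SE, FDR = 1.32e-29). ENG shares 313 exonic bases with an antisense gene. BAMBI resembles a type I receptor without a kinase domain. It fell from 13.7 and 13.2 CPM to 7.62 and 7.95 CPM (−0.79 ± 0.11, SE, FDR = 3.33e-09). TGFBR3, betaglycan, presents TGF-β2 to TGFBR2, and it stood at 17.8 and 17.7 CPM, then 15.3 and 15.7 CPM (−0.19 ± 0.09, SE, FDR = 0.0577).

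Of the 6 secreted antagonist and follistatin family genes, 4 fell, 0 rose and 2 did not pass, where 29.5% of all genes tested fell and 28.6% rose. At an unadjusted p under 0.05, edgeR also placed 0 of them higher, and DESeq2 and limma-voom called 0 higher. These repeats used the same 4 libraries and are not added support. NOG and CHRD, the 2 that did not pass, had few counts. FST encodes follistatin, which binds activins and keeps them from their receptors, and lies on chromosome 5 (52776456 to 52782964, hg19), where no other annotated gene shares its exons. It stood at 21.9 and 21.4 CPM in the control libraries and 2.88 and 2.43 CPM in the PELP1 shRNA libraries. The level with the PELP1 shRNA was 12.3% of control, the largest difference of the 49 genes (log2 fold change −3.02 ± 0.12, SE, FDR = 1.12e-31). FSTL3, a second activin-binding protein, fell from 39.4 and 39.9 CPM to 26.7 and 25.8 CPM (−0.59 ± 0.07, SE, FDR = 2.24e-11). FSTL1, a secreted glycoprotein of the same family, had the most counts of the 49 genes. It stood at 1015 and 982.2 CPM, then 590.7 and 598.8 CPM (−0.75 ± 0.03, SE, FDR = 8.48e-29).

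GREM1, gremlin, binds BMP2, BMP4 and BMP7. It stood at 196 and 186 CPM in the control libraries and 121 and 124 CPM in the PELP1 shRNA libraries (−0.64 ± 0.04, SE, FDR = 8.52e-21). The BMP antagonists NOG and CHRD were at or near 1 CPM or lower in all 4 libraries. NOG had 40 and 27 counts in the control and PELP1 shRNA libraries together, a ratio of 0.574 (95% counting interval 0.339 to 0.959), and an FDR of 0.0749. CHRD had 40 and 56 counts, a ratio of 1.19 (95% counting interval 0.779 to 1.83).

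Antagonist and ligand levels were also set side by side per exon length, as a description with no test, since 2 libraries against 2 cannot give an exact permutation p below 0.333. The ratio of FST to INHBA was 0.292 and 0.286 in the control libraries and 0.0945 and 0.0811 with the PELP1 shRNA. With FSTL3 added to FST, the ratio to INHBA was 0.766 and 0.768, then 0.889 and 0.861, so the 2 antagonists summed were not lower relative to INHBA although FST alone was. The ratio of GREM1 to BMP4 was 2.00 and 1.68 in the control libraries and 2.90 and 2.94 with the PELP1 shRNA. The ratio to BMP7 went the other way, from 3.40 and 3.28 to 1.5 and 1.39, and the ratio to BMP2, BMP4 and BMP7 summed was 1.16 and 1.03, then 0.883 and 0.855.

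Of the 4 latent TGF-β binding proteins, LTBP3 rose, LTBP1 and LTBP4 fell and LTBP2 did not pass. LTBP3 (chromosome 11, 65306030 to 65326401, hg19) stood at 58.3 and 65.5 CPM in the control libraries and 175 and 159 CPM in the PELP1 shRNA libraries, a 2.69-fold rise (log2 fold change 1.43 ± 0.05, SE, FDR = 7.74e-28). LTBP1 fell from 233 and 238 CPM to 164 and 167 CPM (−0.51 ± 0.04, SE, FDR = 9.86e-18), and LTBP4 from 80.5 and 93.5 CPM to 53.8 and 51.7 CPM (−0.72 ± 0.06, SE, FDR = 2.8e-16). LTBP2, which does not bind latent TGF-β, was at 135 and 142 CPM, then 147 and 136 CPM, and its groups overlap (0.03 ± 0.04, SE, FDR = 0.565). It was called higher with library size alone (0.12, adjusted p = 0.0129). Per exon length, the ratio of LTBP3 to LTBP1 went from 0.160 and 0.176 in the control libraries to 0.679 and 0.607 with the PELP1 shRNA.

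The genes of the signalling SMADs did not pass, with the exception of SMAD9. SMAD3, which carries TGF-β and activin signals, was the most abundant SMAD gene per exon length. It stood at 292 and 294 CPM in the control libraries and 293 and 293 CPM in the PELP1 shRNA libraries (0.0018 ± 0.04, SE, FDR = 0.971). SMAD2 (0.08 ± 0.05, SE, FDR = 0.164), SMAD1 (0.13 ± 0.08, SE, FDR = 0.152), SMAD5 (0.09 ± 0.05, SE, FDR = 0.0737) and the common partner SMAD4 (−0.09 ± 0.05, SE, FDR = 0.129) also missed the threshold. With library size alone, all 5 receptor-regulated SMAD genes were called higher, with SMAD3 at 0.09 (adjusted p = 0.0256) and SMAD1 at 0.22 (adjusted p = 0.0114), and the median of all genes tested was then 0.09. SMAD1, SMAD2 and SMAD5 were also called higher with upper-quartile factors, and SMAD5 with the filter at 5 CPM (0.11, adjusted p = 0.0311) and with a block that pairs replicate 1 of each group with replicate 2 of the other, added after the data were seen (0.09, adjusted p = 0.0177). SMAD9, the least abundant SMAD of the BMP branch, rose from 3.51 and 3.50 CPM to 5.63 and 5.08 CPM (0.61 ± 0.16, SE, FDR = 0.000573).

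The feedback genes moved in different directions. SMAD7, which blocks type I receptors and is itself induced by TGF-β, stood at 48.4 and 47.0 CPM in the control libraries and 36.1 and 35.1 CPM with the PELP1 shRNA (−0.42 ± 0.06, SE, FDR = 3.53e-08). SMAD6, which acts mainly on the BMP branch, was at 11.6 and 9.56 CPM, then 13.2 and 13.4 CPM (0.34 ± 0.10, SE, FDR = 0.00447). DESeq2 (adjusted p = 0.0708) and a fit that left out control replicate 2 (0.20, adjusted p = 0.184) did not call it. Per exon length, the sum of SMAD6 and SMAD7 was 0.285 and 0.275 of the sum of the 5 receptor-regulated SMADs in the control libraries and 0.218 and 0.213 with the PELP1 shRNA. The ubiquitin ligases SMURF1 and SMURF2, which mark SMADs and receptors for degradation, both fell, SMURF1 from 178 and 177 CPM to 127 and 135 CPM (−0.44 ± 0.04, SE, FDR = 4.1e-14) and SMURF2 from 185 and 179 CPM to 122 and 126 CPM (−0.55 ± 0.04, SE, FDR = 6.28e-18). SKIL, a corepressor of SMAD complexes, was at 73.2 and 68.9 CPM, then 74.7 and 74.6 CPM (0.07 ± 0.05, SE, FDR = 0.225), and was called higher with library size alone (adjusted p = 0.00486) and upper-quartile factors (0.0317).

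Of the 3 ID genes, which encode inhibitors of basic helix-loop-helix factors and are classical BMP targets, ID3 fell and ID1 and ID2 did not pass. ID3 stood at 194 and 203 CPM in the control libraries and 137 and 131 CPM in the PELP1 shRNA libraries, 67.5% of control (−0.57 ± 0.04, SE, FDR = 8.87e-19). ID1 was at 83.1 and 85.9 CPM, then 79.4 and 80.0 CPM (−0.08 ± 0.05, SE, FDR = 0.137). ID2 was at 12.5 to 14.9 CPM in all 4 libraries, and its groups overlap. The 3 genes differed in abundance, with ID3 at 133 and ID2 at 6.19 CPM per kb of exon in the control mean.

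Other genes of the pathway were taken from lists that hold none of the 49 genes. Of 98 such genes, 69 had enough counts to test, and 21 rose, 23 fell and 25 did not pass (30.4% higher and 33.3% lower, close to the 28.6% and 29.5% of all genes tested, median −0.02). Among 25 other ligands, 20 were under 1 CPM on average, and of 10 tested, 2 rose and 2 fell, shares below the same 28.6% and 29.5%. BMP5, 1 of the 2 that rose, passed the filter on low counts only through the PELP1 shRNA libraries. The other, NRTN, had 9 and 10 counts with the control shRNA, near the filter limit of 0.375 CPM, and 40 and 34 with the PELP1 shRNA. These 2 rises therefore lean on the group where the genes were high. GDF5, a ligand of joint and cartilage formation, fell from 9.53 ± 0.445 to 3.17 ± 0.595 CPM (SD, n = 2), and GDNF, a distant member that signals through RET, fell from 33.9 ± 0.206 to 21.6 ± 1.06 CPM (SD, n = 2). Among 10 other receptors and co-receptors tested, 4 rose and 4 fell (40.0% each, against the same 28.6% and 29.5%). RGMB, a BMP co-receptor, fell by 1.37 ± 0.06 (SE, FDR = 5.51e-30), while its binding partner NEO1 rose by 0.51 ± 0.04 (SE, FDR = 1.02e-16) on the log2 scale. Of the exonic bases of RGMB 3045 of 6643, and of those of GDF5 932 of 2631, are shared with antisense genes, whose reads cannot be told apart from theirs here. CD109, which binds TGF-β at the cell surface, fell by 0.52 on the log2 scale, GFRA1 by 0.85 and NRP2 by 0.23.

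Of 20 other antagonist, processing and activation genes tested, 4 rose and 9 fell (20% higher and 45% lower, against 28.6% and 29.5% of all genes tested). Of these 20, TLL1 passed the filter on low counts only through the control libraries, and SOST through the PELP1 shRNA libraries and 1 control library. CRIM1, a membrane protein that binds BMPs, fell from 387 ± 1.36 to 138 ± 5.06 CPM (SD, n = 2; FDR = 7.11e-42). EMILIN1, a matrix protein that restrains maturation of the TGF-β precursor, fell from 17.8 and 17.4 CPM to 3.25 and 2.76 CPM (FDR = 1.89e-27). FURIN, the convertase that cleaves the TGF-β precursor, fell by 0.48 and FBN2, a fibrillin, fell by 0.69 on the log2 scale. ITGB8, the β subunit of an integrin that activates latent TGF-β, rose from 65.6 ± 4.11 to 124 ± 2.48 CPM (SD, n = 2; FDR = 3.4e-25), and PCSK6, a convertase related to furin, from 15.8 ± 1.35 to 32.0 ± 1.21 CPM (SD, n = 2). Among 29 other SMAD regulators tested, 11 rose and 8 fell (37.9% and 27.6%), and only PMEPA1 passed the test against a 1.5-fold change. PMEPA1 is induced by TGF-β and binds receptor-regulated SMADs. It rose from 172 ± 0.908 to 302 ± 4.15 CPM (SD, n = 2; FDR = 5.89e-28).

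Genes known to respond to TGF-β fell more often than they rose. Of 34 tested, 20 fell, 8 rose and 6 did not pass (58.8% lower and 23.5% higher, against 29.5% and 28.6% of all genes), with a median of −0.40. The list shares 3 members with the 49 genes, and several of the others were known to be low in these libraries when the list was drawn up, so it is not independent evidence of a direction. BGN, COL1A2, IL11 and LOX had the largest falls, between −3.60 and −2.54 on the log2 scale. LMCD1 (1.04 ± 0.09, SE), PMEPA1 (0.81 ± 0.04, SE), FN1 (0.51 ± 0.03, SE) and COL4A1 (0.47 ± 0.04, SE) rose. Of 24 BMP-responsive genes, 9 of which are among the 49, 10 fell, 9 rose and 5 did not pass (median −0.07). That is 41.7% lower and 37.5% higher, against 29.5% and 28.6% of all genes. Without those 9, 6 fell, 7 rose and 2 did not pass (40.0% lower and 46.7% higher, median 0.07). Among those named outside the 49 genes, at a mean of 5 CPM or more, DLX2 fell by 0.98 ± 0.11 and UNC5B by 0.60 ± 0.12 (SE). TBX3 rose by 0.75 ± 0.05, ID4 by 0.54 ± 0.14 and GATA3 by 0.36 ± 0.10 (SE). Over all 15 genes outside the 49, log2 fold changes ran from −3.18 to 1.25, so larger differences lay in genes not named. Whether any of these differences follows from changed TGF-β or BMP signalling was not tested.

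**Figure D4:**
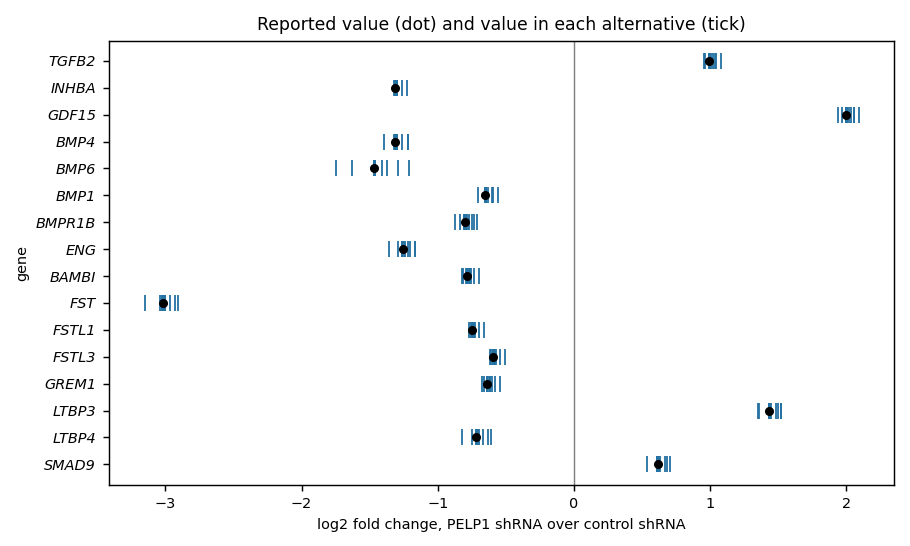
Log2 fold change (PELP1 shRNA over control shRNA) of the 16 genes with a called change of at least 1.5-fold and a mean of at least 1 CPM, as reported (dots) and in each alternative that tested the gene, 14 at most (ticks). No tick crosses 0, and BMP6 spans the widest range, from −1.75 to −1.21.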

How the data were processed

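The 4 Daoy libraries were sequenced with single-end reads of 50 bp. The submitters' processing notes name TopHat2 2.0.8b, hg19 and HTSeq. Not given in the sources used here are the HTSeq version, its strand setting and its annotation. The authors deposited unnormalized read counts for each gene symbol, 1 file per library. No test or library size used the 5 rows that name no gene, among them alignments that were not unique, 29.4% to 30.8% of each file.

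Counts were fitted across all genes with the edgeR 4.0.16 quasi-likelihood F test (robust, TMM, filterByExpr, R 4.3.3), shRNA group as the only term, with Benjamini-Hochberg adjustment over 14972 genes at an FDR of 0.05. glmTreat tested against a 1.5-fold change. SE is the log2 fold change divided by the square root of F. Levels per exon length used union exon lengths of GENCODE v44 lifted to GRCh37, the hg19 assembly. Unused isoforms lengthen those exons and so lower such levels. RefSeq promoter sequences are in GRCh38.p14. The code was tested on simulated data.

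The 49 genes and the lists were chosen with earlier results of these data known. Full statistics were given for called members with at least a 1.5-fold change, no overlap between groups and a mean of at least 1 CPM, and for the most abundant of a role. From each list, up to 4 genes per direction were named, by size of the called change, among those at a mean of 5 CPM or more. Duplicates differed by more than counting noise (chi-square per degree of freedom 2.47 and 2.37, against at least 56.1 between groups), so no library was merged with another. This does not show that they came from separate cultures. Alternatives were DESeq2 1.42.0, limma-voom 3.58.1, other scaling and filters, a replicate block, left-out libraries and assumed biological variations.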

Additional observations from a re-analysis of the deposited data

How the results depend on the processing

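Of the 30 called genes among the 49, 25 kept their call in each of 12 alternatives, as far as a filter left them in. These 12 estimated variation from the data and did not set it to an assumed value. No call was reversed. The 16 genes with a called change of at least 1.5-fold and a mean of at least 1 CPM were among the 25, and INHBE, the other called gene past 1.5-fold, was not. The spread between duplicates was small (biological coefficient of variation 2.99%). With an assumed variation of 10%, 5 calls among the 49 were lost, and with 20% 22 were lost, leaving 3 higher and 5 lower, namely TGFB2, GDF15, LTBP3, FST, INHBA, BMP4, BMP6 and ENG. Scaling moved the count of higher genes from 9 to 17 with library size alone and to 15 with upper-quartile factors. Over all genes tested, it moved that count from 4276 to 5681 and 5071. At 20%, the other pathway genes fell to 7 higher and 7 lower (15 lower at 10%). The TGF-β responsive genes fell to 1 higher and 10 lower at 20%, and the BMP-responsive genes to 1 higher and 3 lower (4 higher at 10%). Of all 14972 genes tested, 2187 were higher and 2176 lower at 10%, and 685 and 640 at 20%.

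The replicate block gave 9 higher and 20 lower genes among the 49, against 9 and 21 without it, and TGFBR1 was the call lost (adjusted p = 0.0773). Over all genes tested, the block gave 4010 higher and 4151 lower, against 4276 and 4424 without it. Same-numbered libraries deviated with a correlation of −0.02 over all genes tested and −0.16 over genes above 5 CPM. The crossed pairing, chosen after the data were seen, gave 11 higher and 22 lower, and 4565 and 4719 over all genes tested. Without any 1 library, 8 were higher and 19 to 20 lower, and the calls lost were among INHBE, TGFBR1, ACVR1B, ACVR2B and SMAD6. The filter at 5 CPM left 43 of the 49 genes to test. Depth limited INHBE, NOG and CHRD, each with at most 56 counts per group.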

Other observations

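CD74, the invariant chain of class II antigen presentation, was looked at after its values were seen because it followed the replicate number as GFAP did. It stood at 7.87 and 5.60 CPM in both first replicates and at 2.53 and 2.39 CPM in both second ones, in the order control then PELP1 shRNA. S100B, a glial marker, was at 1.71 and 1.06 CPM, against 0.583 and 0.218 CPM in the same order.

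Some pathway genes under the abundance used for naming had large differences, and were picked after their values were seen. BMP5 passed the filter on low counts only through the PELP1 shRNA libraries, SOST through these and 1 control library, and TLL1 only through the control libraries. Their counts are therefore given here with no statistics, but they are among the 69 other pathway genes tested above. BMPER, a BMP-binding secreted protein, had 132 and 146 counts with the control shRNA, then 22 and 40 with the PELP1 shRNA. TLL1, a protease related to BMP1, had 33 and 26 counts, then 3 and 5. BMP5 had 6 and 3 counts, then 53 and 36, and SOST, which encodes sclerostin, 5 and 10, then 64 and 59. ACVR1C, the type I receptor for nodal, had 20 and 33 counts, then 93 and 69.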
